A study of Mus musculus with 4 samples.

Results

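The 7 genes described here, Zfp809, Zfp932, Gm15446, Zfp57, Zfp708, Zfp568 and Zfp445, encode zinc finger proteins of the KRAB family with known retrotransposon or imprint targets in mouse embryonic stem cells (ESCs). They were chosen by name from the 24116 genes of the deposited count table. The rule did not use their measured values, but earlier results of these data were known. All 7 were present and passed the filter on low counts, as did 14896 genes in all. RNA-seq of poly(A) RNA compared wild-type (WT) ESCs, line N12, with third-generation (G3) Terc-/- ESCs, line F35, with 2 replicate libraries of each. Both were C57BL/6 ESCs grown on feeder cells in medium with serum and leukemia inhibitory factor, and the G3 Terc-/- cells, which lack the RNA component of telomerase, came from blastocysts of intercrossed G2 Terc-/- mice. Each genotype was 1 line, so that genotype and line cannot be told apart, and p-values measure only the spread between these libraries.

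A KRAB zinc finger protein binds DNA through an array of zinc fingers and recruits the corepressor TRIM28 through its KRAB domain. TRIM28 in turn brings the histone methyltransferase SETDB1, which deposits H3K9me3, along with HP1 proteins and DNA methylation. In ESCs this pathway keeps endogenous retroviruses silent and protects the methylation of imprinting control regions. ZFP809 recognises the proline tRNA primer binding site of murine leukemia virus (MLV) and VL30 proviruses. ZFP932 and its paralog Gm15446 bind ERVK elements, and ZFP708 binds RMER19B. ZFP57 and ZFP445 maintain imprints, and ZFP568 represses a placental transcript of Igf2.

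The members differed widely in structure. Fingers were counted as matches to a strict C2H2 pattern in the translated GENCODE M21 coding sequences, so fingers that depart from it are missed. The counts were 3 in ZFP57, 7 in ZFP809, 11 in ZFP568, 12 in ZFP445, 15 in ZFP932, and 16 in both ZFP708 and Gm15446. The proteins were 402 (ZFP809) to 986 (ZFP445) residues long. ZFP932 and Gm15446 were the closest relatives, with 513 of 525 aligned residues identical (97.71%). Their genes lie 54.8 kb apart on chromosome 5 of GRCm38, Gm15446 from 109933563 to 109941710 and Zfp932 from 109996502 to 110012266. Zfp809 lies on chromosome 9 from 22225667 to 22254117 and Zfp445 on the same chromosome from 122848910 to 122886851. Zfp57 lies on chromosome 17 from 37001163 to 37010729, Zfp708 on chromosome 13 from 67069398 to 67097976, and Zfp568 on chromosome 7 from 29983955 to 30028282.

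Read assignment was uncertain for some members. Zfp932 and Gm15446 shared 261 exonic windows of 150 bases, 7.873% of those of Zfp932 and 7.192% of those of Gm15446, within which a read of that length cannot be placed uniquely. Zfp708 lies within a longer GENCODE gene on the same strand, Gm28557, which held 93.9% of its windows and was no row of the count table. In RefSeq, Zfp809 overlaps Zfp599, Zfp708 overlaps Rslcan18, and Zfp445 overlaps the end of Zkscan7. Gm15446 is annotated as a lncRNA in RefSeq and as protein-coding in GENCODE, and it overlaps LOC115490200. The strand setting of the counting is not given in the sources used here.

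Of the 7 members, 6 had promoter windows in RefSeq (GRCm38.p6). The 250 bases before a start site are shown for Zfp57, the member that changed most, and for the Zfp932 and Gm15446 pair, whose proteins are nearly identical, with CpG dinucleotides in capitals.
Zfp57 (chr17:37000913-37001162, + strand): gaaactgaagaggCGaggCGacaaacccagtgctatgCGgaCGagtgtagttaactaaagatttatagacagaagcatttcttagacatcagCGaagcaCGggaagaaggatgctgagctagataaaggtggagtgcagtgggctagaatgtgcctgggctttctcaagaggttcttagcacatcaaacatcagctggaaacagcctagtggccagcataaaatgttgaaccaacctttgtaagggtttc
Zfp932 (chr5:109996260-109996509, + strand): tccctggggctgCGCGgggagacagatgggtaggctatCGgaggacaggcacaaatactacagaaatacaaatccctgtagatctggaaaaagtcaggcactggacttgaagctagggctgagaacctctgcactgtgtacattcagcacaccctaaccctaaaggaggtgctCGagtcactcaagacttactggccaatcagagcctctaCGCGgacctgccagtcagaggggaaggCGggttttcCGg
Gm15446 (chr5:109933313-109933562, + strand): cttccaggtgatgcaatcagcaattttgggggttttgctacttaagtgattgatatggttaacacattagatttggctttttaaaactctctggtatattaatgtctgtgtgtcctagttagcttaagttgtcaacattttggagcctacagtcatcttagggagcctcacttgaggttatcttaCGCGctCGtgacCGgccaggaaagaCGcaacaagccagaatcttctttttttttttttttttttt

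These stretches hold 6 CpG dinucleotides in Zfp57, 8 in Zfp932 and 5 in Gm15446. In the full windows of 300 bases (250 before and 50 after the start), the 11 windows of the members held 4 to 11, and the median over all 32851 windows was 7, with quartiles of 3 and 20. The hexamer TGCCGC, which ZFP57 binds when methylated, was searched on both strands and was found in none of the 11 windows, against 11.61% of all windows, which says only that these letters are not in these stretches.

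The libraries held 18047995 to 22520017 gene counts and 1805047 to 2104586 repeat counts. Terc counts were 7 and 2 in WT and 0 in each G3 Terc-/- library (a zero allows up to 3 counts, for counting error only). All 12 ESC marker genes were expressed, in CPM (normalised counts scaled to a common library size), and 9 were higher and 3 lower in G3 Terc-/- ESCs by the edgeR test described below. The log2 fold changes ran from -0.79 for Dppa5a, followed by Utf1 (-0.32) and Dppa4 (-0.13), to 1.13 for Nanog, and Pou5f1, which encodes OCT4, had 0.38. Nanog lies on chromosome 6, where 34.0% of the 691 genes tested were higher and 31.1% lower. Whether its number of gene copies differed between the lines was not tested. Fibroblast genes, which mark the feeder cells, were also detected, with 15 of 16 tested (Lum did not pass the filter). Of these, 6 were higher and 1 lower in G3 Terc-/- ESCs. Both marker counts are to be read against all genes, of which the same test called 21.7% higher and 21.8% lower. The summed level of the fibroblast genes was 1571 and 1293 CPM in WT and 2162 and 1825 CPM in G3 Terc-/- libraries. Most of this was Fn1, the fibronectin gene, and without it the sums overlapped between the genotypes, with 433 and 285 CPM in WT and 467 and 319 CPM in G3 Terc-/- libraries. The part of the feeder genes in the results below was not tested.

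The levels of the members, in CPM per kilobase of exon, spanned more than an order of magnitude. Zfp57 was the most highly expressed, with 100.3 and 106.6 in WT against 139.3 and 140.6 in G3 Terc-/- ESCs. Zfp568 followed with 40.6 and 41.8 in WT and 39.3 and 39.8 in G3 Terc-/- ESCs. Zfp445 had 13.8 and 14.8 in WT and 17.6 and 18.1 in G3 Terc-/- ESCs. These 3 levels did not overlap each other in either genotype.

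Zfp932 had 9.21 and 10.4 CPM per kilobase in WT and 11.3 and 12.4 in G3 Terc-/- ESCs, and Zfp809 had 8.01 and 8.46 in WT and 8.68 and 8.55 in G3 Terc-/- ESCs. Zfp708 had 2.99 and 2.64 in WT and 3.55 and 3.73 in G3 Terc-/- ESCs. Gm15446 had 2.52 and 2.70 in WT and 2.59 and 3.23 in G3 Terc-/- ESCs. Zfp708 and Gm15446 were the only neighbours in the order whose libraries overlapped within a genotype, in WT. The order of the means was the same in both genotypes. Despite near-identical proteins, the Gm15446 level was below that of Zfp932 in every library.

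**Figure D1:**
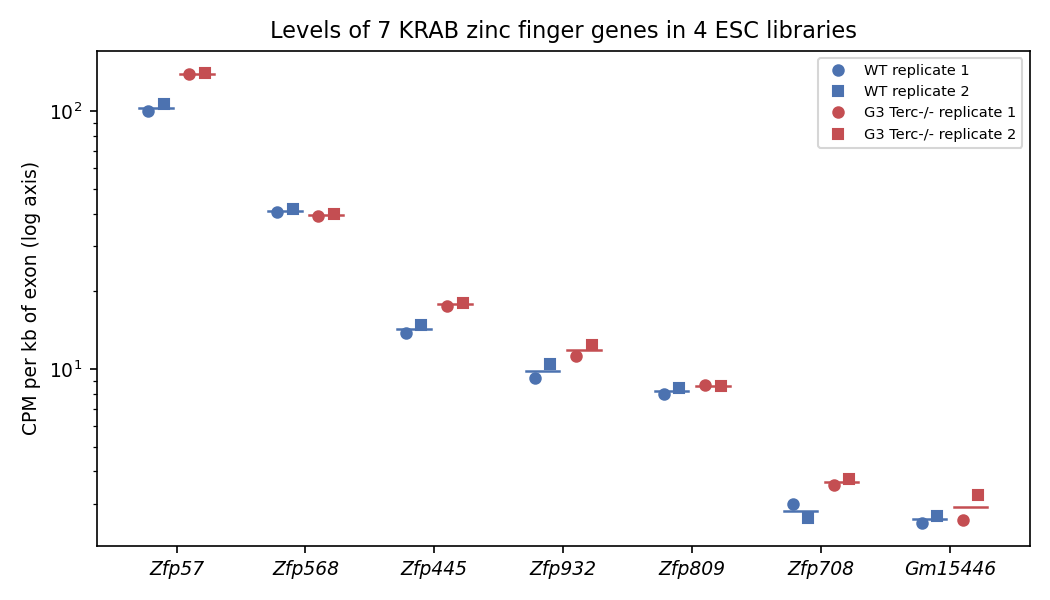
Level of each member in each library, in CPM per kilobase of exon on a log axis, with WT in blue and G3 Terc-/- in red, replicate 1 as circles, replicate 2 as squares and lines at the mean of 2 libraries. Zfp57 is highest in every library, and Zfp708 and Gm15446 are lowest.

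To ask whether the silencing factors changed with loss of Terc, the genotypes were compared with edgeR's quasi-likelihood test over all genes, with Benjamini-Hochberg adjustment. Of the 7 members, 4 were higher in G3 Terc-/- than in WT cells (Zfp57, Zfp708, Zfp445 and Zfp932) and 0 were lower, at an adjusted p below 0.05. At that threshold, 21.7% of the 14896 genes rose and 21.8% fell. By DESeq2, 2 members were higher (Zfp57 and Zfp445) and 0 lower, and at an unadjusted p below 0.05 edgeR gave the same 4 higher and 0 lower. No member reached the study's cutoffs of a fold change of 2 and an unadjusted p of 0.05, against 4.73% of all genes higher and 3.13% lower. The CPM of the genotypes did not overlap for 6 members, but this was so for 70.4% of all genes. On the log2 scale the members had a median change of 0.27, against 0.01 for all genes. In bulk RNA, fewer cells of a type and less RNA per cell cannot be told apart. A two-sided exact permutation test of 2 against 2 libraries cannot go below p = 0.333.

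Both imprint-protecting members were higher. Zfp57 had 380 and 404 CPM in WT and 528 and 532 CPM in G3 Terc-/- ESCs, so that both G3 Terc-/- libraries lay above both WT libraries. Its log2 fold change was 0.44 (95% interval 0.34 to 0.53, standard error 0.05, adjusted p = 5.29e-10, edgeR), a fold of 1.352. Zfp445, which acts beside ZFP57 at imprinting control regions, had 102 and 110 CPM in WT and 130 and 134 CPM in G3 Terc-/- ESCs. Again the groups did not overlap, and the log2 fold change was 0.32 (95% interval 0.20 to 0.43, standard error 0.06, adjusted p = 1.16e-05, edgeR).

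Zfp568 did not pass the test. It had 298 and 307 CPM in WT and 289 and 293 CPM in G3 Terc-/- ESCs, a log2 fold change of -0.06 with a 95% interval of -0.16 to 0.04 (adjusted p = 0.360, edgeR). The G3 Terc-/- libraries lay just below the WT libraries, by less than the test could separate.

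Among the members that bind endogenous retroviruses, Zfp932 had 30.1 and 34.1 CPM in WT and 36.8 and 40.7 CPM in G3 Terc-/- ESCs, with a log2 fold change of 0.27 (95% interval 0.11 to 0.43, adjusted p = 0.00521, edgeR). Its call was lost by DESeq2 (adjusted p = 0.0602) and without WT replicate 1, where the log2 fold change was 0.18 (adjusted p = 0.197, edgeR). Its paralog Gm15446 had 9.53 and 10.2 CPM in WT and 9.79 and 12.2 CPM in G3 Terc-/- ESCs. These groups overlapped, with a log2 fold change of 0.15 (95% interval -0.11 to 0.41, adjusted p = 0.373, edgeR), which was -0.01 without G3 Terc-/- replicate 2 and 0.30 without G3 Terc-/- replicate 1. The interval of Gm15446 holds the value of Zfp932, and the difference between the paralogs was not tested.

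Zfp708 had 7.88 and 6.95 CPM in WT and 9.33 and 9.81 CPM in G3 Terc-/- ESCs, with a log2 fold change of 0.37 (95% interval 0.09 to 0.65, adjusted p = 0.0303, edgeR). Its mean of 178 counts per library was the lowest of the members. The call was lost by DESeq2 (adjusted p = 0.182), without WT replicate 2 (log2 fold change 0.28, adjusted p = 0.244, edgeR), without G3 Terc-/- replicate 1 (0.40, adjusted p = 0.05003) and without G3 Terc-/- replicate 2 (0.34, adjusted p = 0.0994). Zfp809 had 23.7 and 25.03 CPM in WT and 25.7 and 25.3 CPM in G3 Terc-/- ESCs. Its libraries lay close together, and the log2 fold change was 0.07 (95% interval -0.11 to 0.24, adjusted p = 0.558, edgeR).

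**Figure D2:**
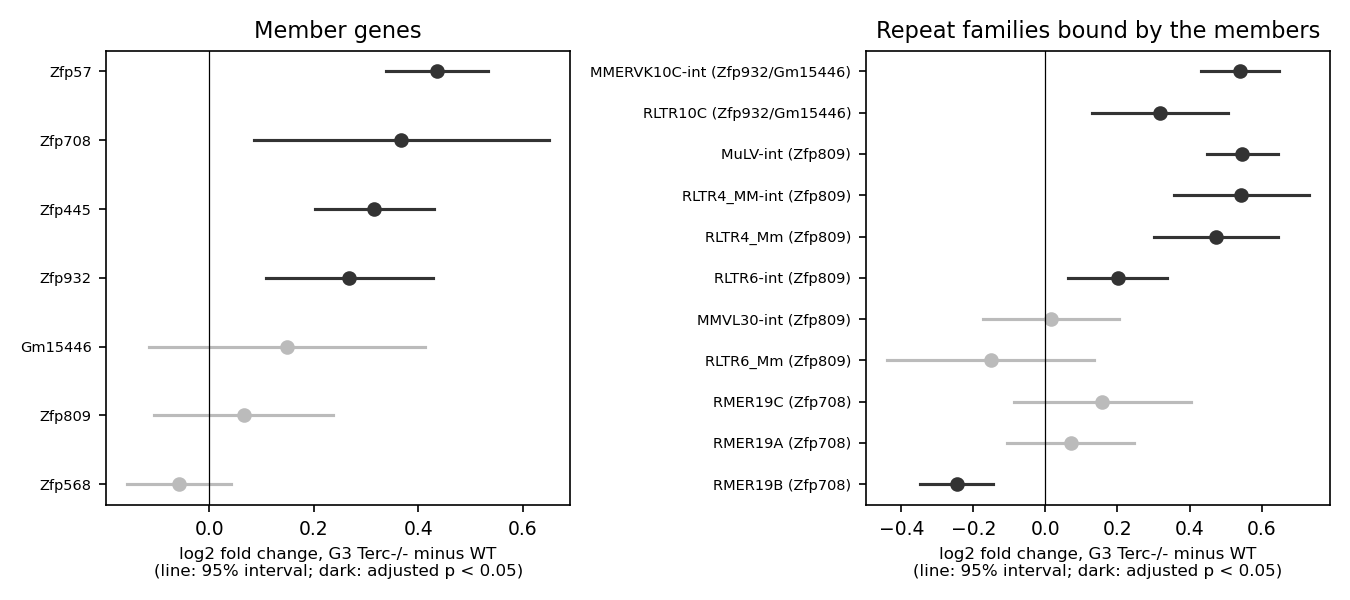
Log2 fold change (x axis, G3 Terc-/- minus WT) of the members (left) and of the repeat families listed as their targets (right). Lines are 95% intervals from the edgeR fit, and adjusted p below 0.05 is in dark. The families include RMER19A and RMER19C, relatives of RMER19B. Zfp57, Zfp708, Zfp445 and Zfp932 lie above 0, and RMER19B is the only family in dark below 0.

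By the similarity of mean-centred log2 CPM over the 4 libraries (Euclidean distance, pseudocount 1 CPM), the genes with a pattern nearest to Zfp57 were Acot8, a peroxisomal thioesterase gene (distance 0.0215), Rbbp5, which encodes a subunit of H3K4 methyltransferase complexes (0.0226), and Aldh1a2, which encodes a retinoic acid synthesising enzyme (0.0227). Rbbp5, for example, had 101 and 109 CPM in WT and 141 and 140 CPM in G3 Terc-/- ESCs. With 4 libraries in 2 groups, such likeness says little beyond a rise of similar size.

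The members were next set beside the other zinc finger genes. The table held 383 other genes named Zfp with a number. Of the 360 that were tested, 123 (34.2%) were higher and 48 (13.3%) lower in G3 Terc-/- ESCs by edgeR's adjusted p, with a median log2 fold change of 0.17. Not every gene of that name encodes a KRAB protein. A narrower list, chosen after the data were seen, held genes whose translated GENCODE coding sequence contains at least 3 C2H2 fingers and a strict KRAB box pattern. The pattern finds 5 of the 7 members (not Zfp708 and Zfp445) and so undercounts. Of its 190 tested genes other than the members, 88 (46.3%) were higher and 9 (4.74%) were lower. Their median was 0.27 on the log2 scale, and 154 of 190 lay above 0. The median of the members, 0.27, thus lay at the median of this list. Many of these genes are close relatives in clusters that share sequence, so they are not independent of each other.

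Of the 360 Zfp-named genes tested, 15 passed the study's cutoffs as higher and 7 as lower. Over all genes, 4.73% passed as higher and 3.13% as lower. Where the mean reached 50 counts, Zfp951 had the largest rise, from 12.6 and 13.4 CPM in WT to 54.4 and 58.6 CPM in G3 Terc-/- ESCs (log2 fold change 2.12, standard error 0.08, edgeR). It was followed by Zfp229 at 2.11, Zfp560 at 1.74, Zfp985 at 1.67 and Zfp936 at 1.36. Each of these rises was larger than that of any member. The largest fall was that of Zfp280c on the X chromosome, from 35.9 and 37.5 CPM to 12.2 and 14.9 CPM (-1.45, standard error 0.09, edgeR). It was followed by Zfp746 (-1.30), Zfp862-ps (-1.27), Zfp956 (-1.26) and Zfp775 (-1.06), which lie within 1 cluster on chromosome 6. Chromosome 6, which holds no member, had 9 of its 19 Zfp-named genes lower and 4 higher. Over all 691 genes tested there, 34.0% were higher and 31.1% lower. The paper reports that part of this chromosome was deleted in Terc-/- ESCs of this generation. Which of the genes named here lie in the deleted part was not tested. Fewer gene copies and less RNA per copy therefore cannot be told apart for them.

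**Figure D3:**
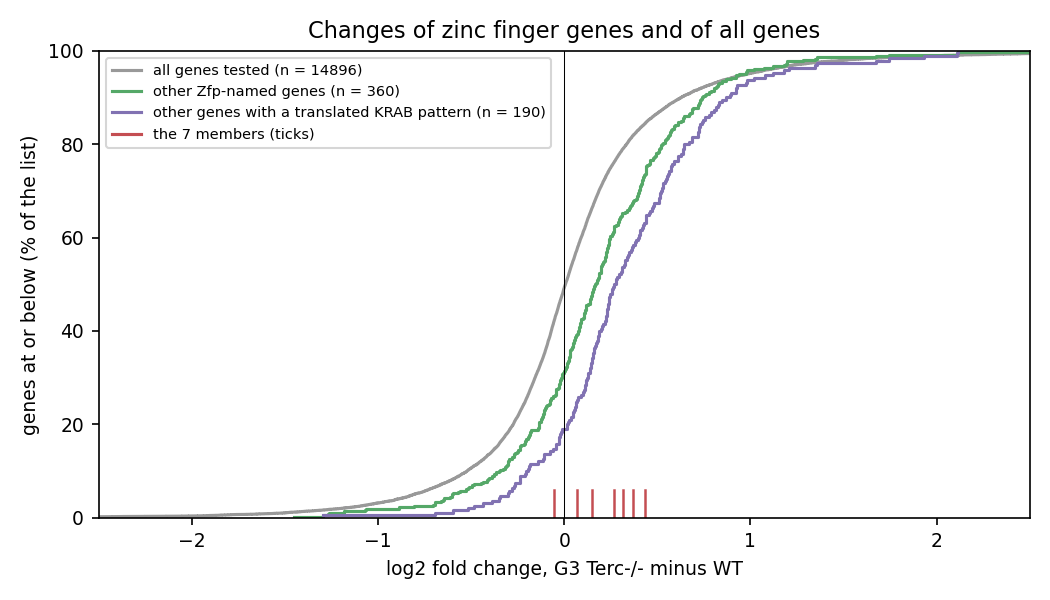
Cumulative share of genes (y axis, % of each list) by log2 fold change (x axis, G3 Terc-/- minus WT, drawn from -2.5 to 2.5) for all 14896 genes, 360 other Zfp-named genes and 190 other genes with a translated KRAB pattern, with the 7 members as red ticks. Both zinc finger curves lie to the right of all genes through their middle, with medians of 0.17 and 0.27 against 0.01.

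Many zinc finger genes lie in clusters, and the neighbourhood of each member was examined within 2 Mb on either side. The counts are to be read against all genes tested, of which 21.7% were higher and 21.8% lower by edgeR's adjusted p. Of the 360 other Zfp-named genes tested, 34.2% were higher and 13.3% lower. Zfp708 lay in the richest cluster, with 23 Zfp-named genes among 40 tested neighbours. Of these 40, 14 were higher and 1 was lower (median 0.20 on the log2 scale), and 6 of the 23 Zfp-named genes were higher and 0 lower. The nearest of these 6 was Zfp759, with a log2 fold change of 0.64 (adjusted p = 0.000729, edgeR). Around Zfp809, 4 of 8 Zfp-named genes were higher and 0 lower, whereas of all 75 neighbours 11 were higher and 24 lower, with a median of -0.07.

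Around the other members the medians lay close to 0. The counts again compare with 21.7% of all genes higher and 21.8% lower. Zfp57 had no Zfp-named neighbour, and the median over its 79 neighbours was 0.05, 17 of them being higher and 13 lower. The 38 neighbours of Zfp445 had a median of 0.03 (4 higher and 3 lower), and those of Zfp932 (41 genes) and Gm15446 (42 genes, largely the same ones) had medians of -0.0058 (9 higher and 9 lower) and -0.00015 (10 higher and 9 lower). Zfp605, the only Zfp-named gene beside that pair, was lower by 0.30 on the log2 scale (log2 fold change -0.30, adjusted p = 0.0409, edgeR). Zfp568 had 114 neighbours with a median of -0.02, 15 of them higher and 29 lower, and of the 16 Zfp-named genes among them 4 were higher and 3 lower.

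**Figure D4:**
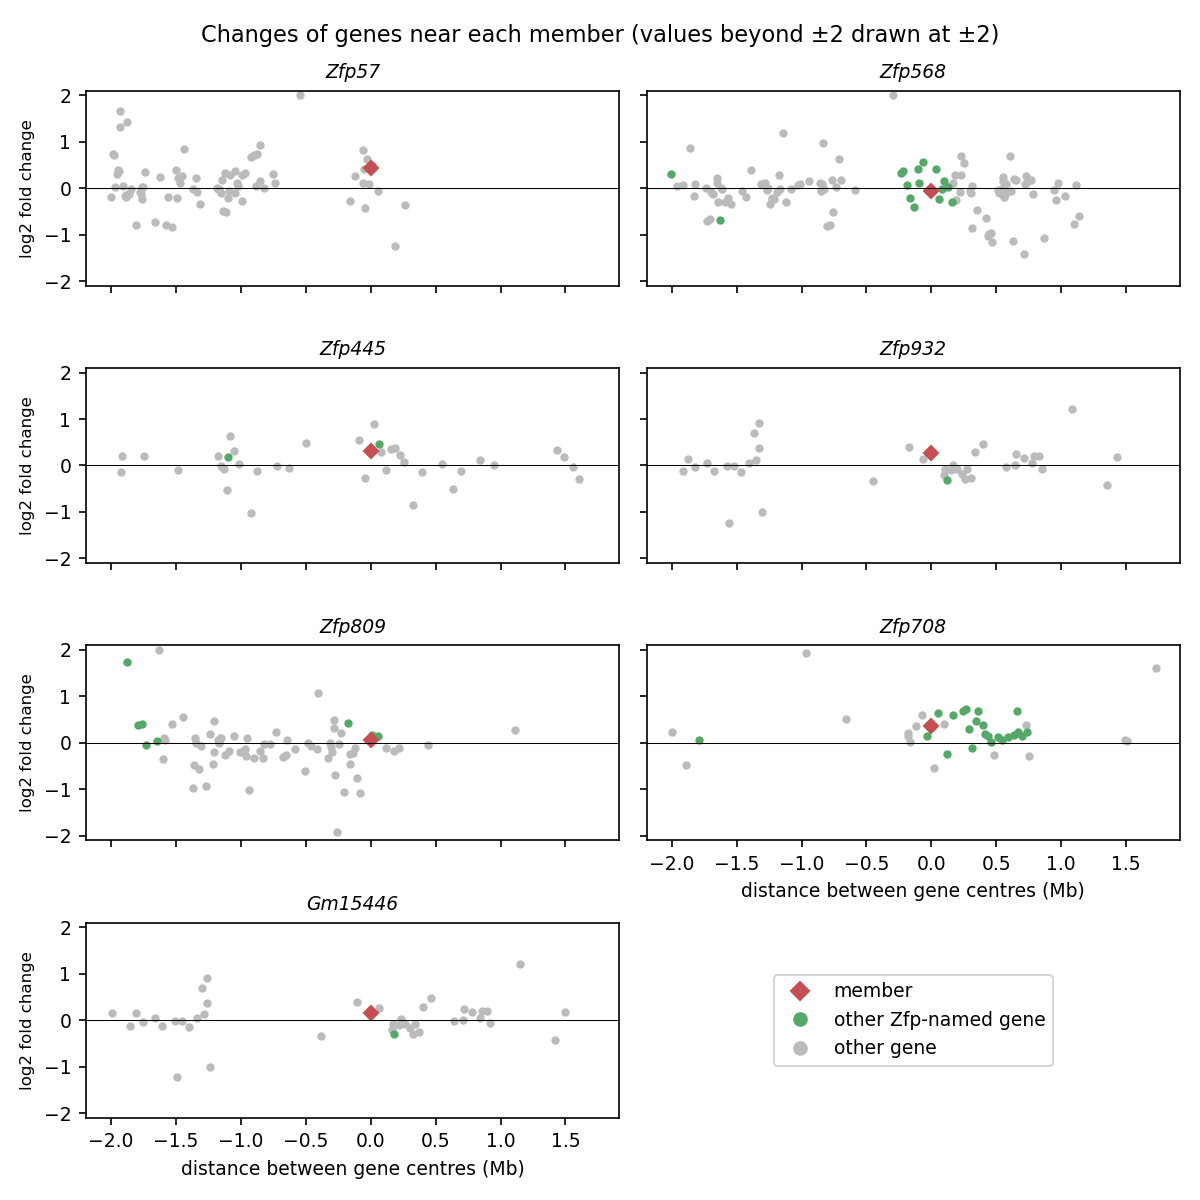
Log2 fold change (y axis, G3 Terc-/- minus WT) of tested genes within 2 Mb of each member against the distance between gene centres (x axis, Mb), with the member as a red diamond and other Zfp-named genes in green. Values beyond 2 in either direction are drawn at 2, and the green points of the Zfp708 cluster lie mostly above 0.

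Partners of the KRAB proteins were measured in the same libraries, in a list that also holds other chromatin genes, among them Ehmt1, Atrx and Rif1. The counts for this list are therefore not counts for the TRIM28 and SETDB1 route alone. Trim28, the corepressor gene, had 1632 and 1633 CPM in WT and 2233 and 2105 CPM in G3 Terc-/- ESCs, giving a log2 change of 0.41 (adjusted p = 9.46e-10, edgeR), close in size to the change of Zfp57. Setdb1, the H3K9 methyltransferase gene, had 183 and 189 CPM in WT and 181 and 185 CPM in G3 Terc-/- ESCs, with overlapping groups and a 95% interval of the log2 fold change from -0.13 to 0.08. Of the 30 partner genes tested, 4 were higher (Trim28, Dnmt3l, Hdac1 and Rif1) and 12 were lower. These were 13.3% and 40% of the list, against 21.7% and 21.8% of all genes. The other 14 did not pass, and the median log2 fold change of the 30 was -0.08.

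The partners with the smallest p were all lower. Dnmt3b, a de novo DNA methyltransferase gene, fell from 514 and 523 CPM to 231 and 241 CPM (log2 fold change -1.13, standard error 0.05, adjusted p = 1.59e-22, edgeR). Cbx3, which encodes HP1 gamma, fell from 156 and 167 CPM to 64.4 and 72.2 CPM (-1.24), and Smarcad1, a chromatin remodeller gene, from 167 and 173 CPM to 81.4 and 93.4 CPM (-0.96). Cbx3 and Smarcad1 lie on chromosome 6. The paper reports that part of this chromosome was deleted in Terc-/- ESCs of this generation. Whether the deleted part holds Cbx3 or Smarcad1 was not tested, so their falls may reflect fewer gene copies. The other genes that were lower included Atrx (-0.72), Cbx1 (-0.59), Dnmt3a (-0.50) and Ehmt1 (-0.38).

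The targets of the members were then examined, first the repeat families. Counts of repeat copies were summed by repeat name, and CPM here are scaled to all repeat counts of a library. The 11 families listed as targets include RMER19A and RMER19C as relatives of RMER19B, and their binding by ZFP708 was not tested. Of the 11 target families, 6 were higher and 1 lower in G3 Terc-/- ESCs by edgeR's adjusted p, where 13.2% of the 917 families tested were higher and 11.6% lower. No target family passed the study's cutoffs for families, a fold change of 1.5 and a p of 0.05. The CPM of the genotypes did not overlap for 7 of the 11 families, as for 60.6% of all families. The median log2 fold change was 0.20 over the target families and -0.0046 over all families. Several target families are the internal part and the long terminal repeat of the same proviruses, so they are not independent of each other. Scaling by the gene table's library sizes moved the split of all families from 121 higher and 106 lower to 151 and 50, and library totals alone moved it to 153 and 67. Under both, 6 target families were higher and 1 was lower.

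The MLV families, targets of ZFP809, were higher. MuLV-int, the internal part of MLV proviruses, had 1006 and 967 CPM in WT and 1474 and 1407 CPM in G3 Terc-/- ESCs, a log2 fold change of 0.55 (95% interval 0.45 to 0.64, adjusted p = 9.46e-06, edgeR). A single copy held 96.5% of its counts, which had 1973 and 1937 counts in the WT libraries against 2998 and 2469 counts in G3 Terc-/- ESCs, so this family was in effect that copy. Without it, on the few counts that remained, the log2 fold change was 0.85 (adjusted p = 0.00646, edgeR). RLTR4_Mm, an MLV long terminal repeat, had 205 and 208 CPM in WT and 284 and 290 CPM in G3 Terc-/- ESCs (log2 fold change 0.47, adjusted p = 0.00172, edgeR).

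RLTR4_MM-int had 196 and 179 CPM in WT and 272 and 274 CPM in G3 Terc-/- ESCs (log2 fold change 0.54, adjusted p = 0.00119, edgeR). Its most counted copy rose from 26 and 37 counts to 139 and 139, and leaving it out brought the value to 0.22 with the call lost (adjusted p = 0.125, edgeR). Zfp809 itself did not pass the test.

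The VL30 families, also bound by ZFP809, behaved less uniformly. MMVL30-int had 866 and 719 CPM in WT and 844 and 754 CPM in G3 Terc-/- ESCs, with overlapping groups and a log2 fold change of 0.01 (95% interval -0.17 to 0.20, edgeR). RLTR6_Mm, the VL30 long terminal repeat, had 130 and 105 CPM in WT and 111 and 99.5 CPM in G3 Terc-/- ESCs (log2 fold change -0.15, adjusted p = 0.450, edgeR). RLTR6-int had 448 and 425 CPM in WT and 494 and 511 CPM in G3 Terc-/- ESCs (0.20, adjusted p = 0.0375, edgeR), and its call was lost by DESeq2 (adjusted p = 0.0952), with the replicate number as a block (adjusted p = 0.0794), without WT replicate 2 (0.16, adjusted p = 0.207) and without G3 Terc-/- replicate 2 (0.18, adjusted p = 0.102).

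Both families bound by ZFP932 and Gm15446 were higher. MMERVK10C-int, the internal part of an ERVK element, had 702 and 676 CPM in WT and 982 and 1022 CPM in G3 Terc-/- ESCs (log2 fold change 0.54, standard error 0.05, adjusted p = 2.21e-05, edgeR). The rise did not rest on 1 copy, since without the most counted copy, which held 14.4% of the counts, the value was 0.56. RLTR10C, its long terminal repeat, had 185 and 177 CPM in WT and 229 and 221 CPM in G3 Terc-/- ESCs (0.32, adjusted p = 0.0198, edgeR). The RLTR10C call was lost by DESeq2 (adjusted p = 0.0686), without WT replicate 2 (0.28, adjusted p = 0.0973) and without G3 Terc-/- replicate 1 (0.29, adjusted p = 0.0637).

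RMER19B, the target of ZFP708, was the only target family that was lower. It had 2435 and 2348 CPM in WT and 2104 and 1923 CPM in G3 Terc-/- ESCs (log2 fold change -0.25, 95% interval -0.35 to -0.15, adjusted p = 0.00311, edgeR). Its most counted copy went from 1163 and 1067 counts to 777 and 566, and without it the log2 fold change was -0.15 (adjusted p = 0.0401, edgeR). The related RMER19A (0.07) and RMER19C (0.16) had overlapping groups and did not pass.

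Set side by side, Zfp932 and its families were both higher, Zfp708 was higher and RMER19B lower, and the MLV families were higher while Zfp809 did not pass. No relation between the level of a member and its targets was computed over only 4 libraries, and in these counts a repeat's own transcripts cannot be told apart from longer transcripts that contain a copy.

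**Figure D5:**
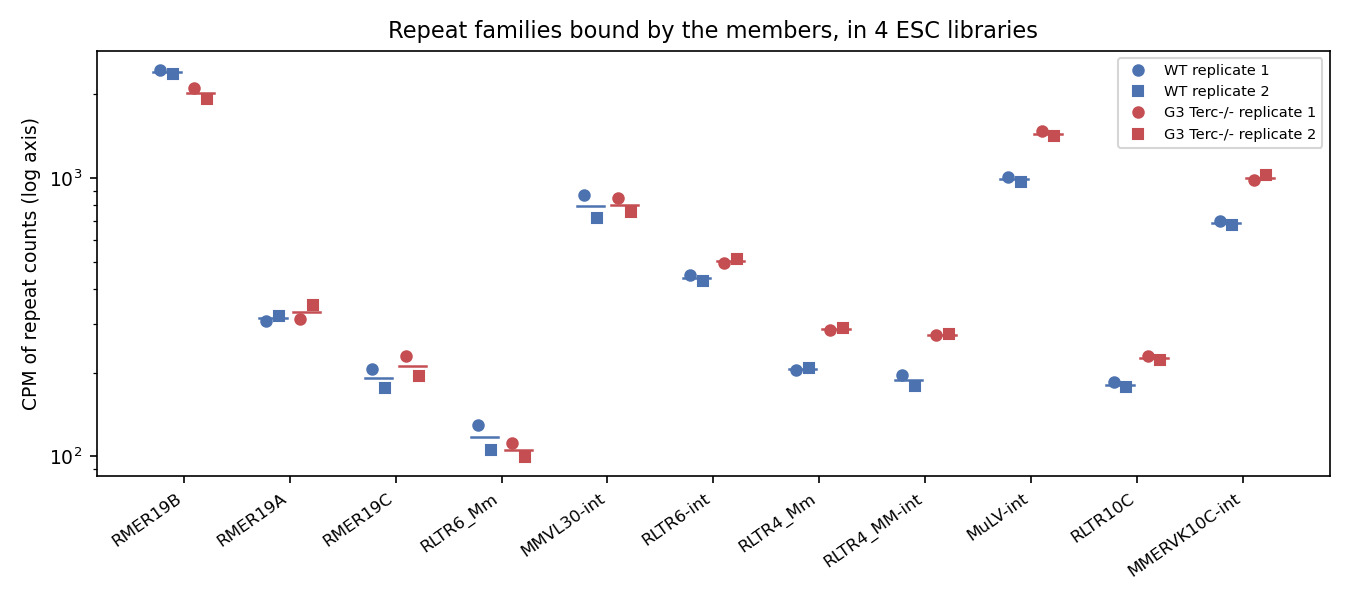
CPM of repeat counts of the 11 target families in each library on a log axis, with WT in blue and G3 Terc-/- in red, replicate 1 as circles, replicate 2 as squares and lines at the mean of 2 libraries. MMERVK10C-int, MuLV-int and both RLTR4 families are higher in both G3 Terc-/- libraries, and RMER19B is lower in both.

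Genes listed as imprinted moved in both directions, and which of them depend on ZFP57 or ZFP445 was not tested. Of 45 listed and 40 tested, 11 (27.5%) were higher and 14 (35%) lower by edgeR's adjusted p, against 21.7% and 21.8% of all genes. The other 15 did not pass, and the median log2 fold change of the 40 was -0.04. DESeq2 gave 6 higher and 12 lower. The study's cutoffs were passed by 4 of the 40 that were higher and 2 that were lower, against 4.73% and 3.13% of all genes. Plagl1, which encodes a zinc finger transcription factor, rose from 11.9 and 13.4 CPM to 52.8 and 60.0 CPM (log2 fold change 2.16, standard error 0.09, adjusted p = 1.40e-23, edgeR). Magel2 rose from 2.06 and 1.26 CPM to 6.09 and 4.82 CPM (1.72, adjusted p = 5.22e-08, edgeR).

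The other imprinted genes past the cutoffs and higher had few counts. Mirg had 6 and 6 counts in WT against 14 and 13 counts in G3 Terc-/- ESCs, and its adjusted p did not pass. Dcn had 20 and 8 counts in WT against 27 and 26 counts in G3 Terc-/- ESCs, with a log2 fold change of 1.04 that was 0.52 without WT replicate 2 (adjusted p = 0.447, edgeR). Dcn is also a fibroblast gene, and of the 15 feeder markers tested 6 were higher, 1 was lower (Tagln, -0.25) and 8 did not pass. Over all genes, 21.7% were higher and 21.8% lower. The Dcn call was also lost by DESeq2 and without either G3 Terc-/- replicate.

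Igf2, a fetal growth factor gene and the known target of ZFP568, fell from 93.3 and 75.9 CPM to 35.6 and 30.5 CPM (log2 fold change -1.35, standard error 0.08, adjusted p = 6.47e-18, edgeR). H19, its neighbour under the same control region, had 48.5 and 41.2 CPM in WT and 47.5 and 41.0 CPM in G3 Terc-/- ESCs, with overlapping groups and a 95% interval of the log2 fold change from -0.17 to 0.14. Zfp568 did not pass the test, and gene counts do not separate the placental Igf2 transcript from the others. Peg10 on chromosome 6 fell from 528 and 502 CPM to 238 and 227 CPM (-1.15, adjusted p = 1.84e-22, edgeR). Whether Peg10 lies in the reported deletion on that chromosome was not tested. Methylation of the control regions was not measured here.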

How the data were processed

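Raw counts per gene and per repeat copy were deposited by the authors without normalization, for 2 WT and 2 G3 Terc-/- libraries. The submitters' processing notes name Trim Galore, STAR and featureCounts, with reads aligned to mm10, and no versions. Identifiers were matched to RefSeq (GRCm38.p6) for 24061 of 24116 genes. The 3658072 repeat copies were summed into 1072 families. Genes and families were filtered with filterByExpr, TMM-normalised and tested with edgeR 4.0.16 (quasi-likelihood, genotype only, two-sided) in R 4.3.3, with Benjamini-Hochberg adjustment over all features tested. CPM use TMM-scaled libraries, and exon length is the union of exons. Fits were tested on simulated counts. Figures were drawn with matplotlib 3.10.9. Replicates differed by more than sampling noise, the mean chi-square being 2.48 (WT) and 3.76 (G3 Terc-/-) over genes.

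The members and lists were chosen with earlier results of these data known. Named were all members, target families and Terc, Igf2, H19 and the imprinted genes past the study's cutoffs, Trim28, Setdb1 and the 3 partners with the smallest p, the 5 largest rises and falls among Zfp-named genes called with a mean of at least 50 counts, and the 3 genes nearest to Zfp57. Others were named after their values were seen. Alternatives were DESeq2 1.42.0, its size factors, library totals, no filter, a mean of at least 20 counts, a replicate block, each library left out, and for families gene library sizes and the top copy left out.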

Additional observations from a re-analysis of the deposited data

How the results depend on the processing

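With 2 libraries per genotype, small changes of members with few counts were at the limit of what depth and spread allowed. The calls of Zfp57 and Zfp445 and the missed calls of Zfp809 and Zfp568 were kept in every alternative run. Zfp932 lost its call by DESeq2 (log2 fold change 0.27) and, with each library left out, lay between 0.18 (without WT replicate 1) and 0.36. Zfp708 lost its call by DESeq2 (0.37) and lay between 0.28 (without WT replicate 2) and 0.46 with a library left out. Gm15446 lay between -0.0082 (without G3 Terc-/- replicate 2) and 0.30. By DESeq2, 2 members were higher in place of 4, 6 imprinted genes were higher in place of 11, 4 genes with the translated KRAB pattern were lower in place of 9, and 2076 genes were higher in place of 3238. The cause was not tested.

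The replicate number as a block left the members at 4 higher and 0 lower, with Zfp57 at 0.44. Same-numbered libraries deviated together only weakly (correlation 0.11 over genes and -0.05 over families). The summed feeder genes without Fn1 were nevertheless higher in replicate 1 of both genotypes. They had 433 against 285 CPM in WT and 467 against 319 CPM in G3 Terc-/- libraries. With 2 pairs, whether the numbers pair the samples could not be decided. Under the block 91 families were higher and 72 lower in place of 121 and 106, and among the values named only the call of RLTR6-int was lost.

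Of 249 values of 25 other named genes under the alternatives, 235 kept direction and call, and of 132 of the 11 families, 121 did. Reversals were values near 0, namely MMVL30-int (-0.12 to 0.15 with a library left out), RMER19A (-0.010 to 0.15), Setdb1 (0.0089 by library totals) and H19 (0.020 by library totals and -0.13 to 0.10 with a library left out).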
